A study of Mus musculus with 13 samples.

Results

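Genes for splicing factors and for the proteins of the small nuclear ribonucleoproteins (snRNPs) were followed in whole mouse hearts after transverse aortic constriction (TAC), with and without tauroursodeoxycholic acid (TUDCA). The genes were taken from the annotated array probes by the start of their symbol (Srsf, Hnrnp, Snrp, Snrnp, Sf3a, Sf3b or Prpf), each represented by its brightest probe, and 52 of the 8336 measured genes met this rule. All 52 symbols matched the current RefSeq gene table by Entrez number, and 49 of the 52 genes were detected on all 13 arrays; the exceptions were Hnrnpa3 and Hnrnpu, detected on 9 arrays each, and Prpf39, detected on 8. The study asked how TUDCA, a bile acid conjugate that acts as a chemical chaperone in the endoplasmic reticulum, affects the heart under pressure overload, which TAC produces by narrowing the aorta.

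All hearts came from male C57BL/6 mice aged 8 to 10 weeks and were taken 1 week after surgery, and no genetic change is given for any group. The groups were Veh-Sham (sham surgery without constriction, water as vehicle by oral gavage, 3 hearts), Veh-TAC (constriction and vehicle, 3 hearts), TUDCA-Sham (sham surgery and TUDCA, 3 hearts) and TUDCA-TAC (constriction and TUDCA, 4 hearts). TUDCA was given by gavage at 300 mg/kg per day from the day of surgery. The labels call the arrays biological replicates.

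Introns are removed from pre-mRNA by the spliceosome, which is built from several kinds of snRNP, each a small RNA with a ring of Sm proteins and proteins of its own. The U1 and U2 snRNPs recognise the 5′ splice site and the branch point, the U4/U6 and U5 snRNPs bring in the catalytic core, the Prp19 complex stabilises it, and the U11/U12 snRNPs serve a minor class of introns. SR proteins (Srsf) bind exons and mostly promote their inclusion, whereas hnRNP proteins coat nascent transcripts and often repress it. In the heart, changes of these regulators are known to alter the exons of sarcomere and calcium handling genes.

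Arrays carried 11647 to 12791 detected probes each. The intensity at the 25th percentile of an array was 164.4 to 270.4 on 5 arrays (the 4 TUDCA-TAC arrays and TUDCA-Sham replicate 3) and 302.7 to 314.5 on the other 8. The Veh-Sham and Veh-TAC arrays thus all lay in the higher range, while a comparison of TUDCA-TAC with Veh-TAC set arrays of the lower range against arrays of the higher. The comparison of TUDCA-TAC with TUDCA-Sham was uneven too, since only replicate 3 of the TUDCA-Sham group lay in the lower range. The same holds for the difference of the responses to TAC. Markers of cardiomyocytes (7 of 8 measured) stood at a mean log2 signal of 13.1 to 14.0 on all arrays. Of these 7, 1 was called lower in Veh-TAC than in Veh-Sham hearts (limma). Endothelial markers (5 of 6 measured) stood at 10.3 to 10.8 on all arrays, with 0 called between these groups. Markers of lymphocytes (0 of 5) did not pass the detection limit. The mean log2 signal of fibroblast markers (7 of 8 measured) was 10.5 to 10.8 in the Veh-Sham group, 11.9 to 12.4 in the Veh-TAC group, 10.4 to 10.9 in the TUDCA-Sham group and 11.3 to 11.4 in the TUDCA-TAC group. That of macrophage markers (6 of 8) was 9.58 to 9.67, 10.5 on each array, 9.58 to 9.95 and 9.65 to 10.0 in the same order. Of the markers of dividing cells (5 of 10 measured), 2 were called higher and 1 lower with vehicle (limma). Their mean was 6.94 to 7.33, 7.51 to 7.89, 6.74 to 6.90 and 7.37 to 8.02. Atrial markers (3 of 3) moved the other way, at 15.10 to 15.28, 14.68 to 15.06, 15.27 to 15.40 and 14.84 to 15.03, so that within each treatment the TAC hearts lay below the sham hearts, and 1 of the 3, Myl7, was called lower with vehicle (limma). Smooth muscle markers (3 of 4) stood at 10.56 to 10.77, 10.52 to 10.73, 10.60 to 10.99 and 10.95 to 11.25 in the same order. The TUDCA-TAC hearts thus lay above the Veh-TAC hearts without overlap, but overlapped with the TUDCA-Sham hearts. The part of these cell types in the results below was not tested, and in RNA from a whole heart fewer cells of a type and less RNA per cell cannot be told apart.

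The promoters of 4 genes are shown first because Snrpn, Prpf19 and Sf3a1 were the genes lowered by TAC with vehicle that were higher in TUDCA-TAC than in Veh-TAC hearts, and Srsf9 was the gene raised by TAC. Each sequence is the 150 bases before a transcription start in RefSeq on GRCm38.p6, read 5′ to 3′ along the gene: Snrpn at chr7:60005200-60005349 on the minus strand (the start it shares with Snurf), Prpf19 at chr19:10895081-10895230 on the plus strand, Sf3a1 at chr11:4160204-4160353 on the plus strand, and Srsf9 at chr5:115327027-115327176 on the plus strand. Capitals mark, on either strand, 4 short motifs, none of which overlap here. The ETS core, recognised by ETS factors, is spelled CCGGAA. The CCAAT box is spelled as its name says. The GC box is spelled GGGCGG. The TATA box is spelled TATAAA.
Snrpn: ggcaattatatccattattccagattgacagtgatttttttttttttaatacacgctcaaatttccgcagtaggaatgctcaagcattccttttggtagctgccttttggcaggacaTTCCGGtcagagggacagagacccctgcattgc
Prpf19: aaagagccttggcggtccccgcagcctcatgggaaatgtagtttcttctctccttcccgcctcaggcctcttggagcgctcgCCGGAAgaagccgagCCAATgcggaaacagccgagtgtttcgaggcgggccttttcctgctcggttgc
Sf3a1: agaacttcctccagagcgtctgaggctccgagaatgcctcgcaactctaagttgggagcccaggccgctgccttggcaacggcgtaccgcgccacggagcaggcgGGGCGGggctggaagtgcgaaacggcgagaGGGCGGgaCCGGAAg
Srsf9: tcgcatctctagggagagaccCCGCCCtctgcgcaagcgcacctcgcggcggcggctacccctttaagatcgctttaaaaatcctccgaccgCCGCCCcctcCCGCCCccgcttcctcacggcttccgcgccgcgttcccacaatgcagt
The promoters of Snrpn, Prpf19 and Sf3a1 each held 1 ETS core, that of Prpf19 also 1 CCAAT box, that of Sf3a1 2 GC boxes and that of Srsf9 3. A TATA box was in none of the 4. A promoter was found in the RefSeq table for 47 of the 52 genes, and in the 250 bases before the start 21 of them (44.7%) held an ETS core, 22 (46.8%) a CCAAT box, 31 (66%) a GC box and 5 (10.6%) a TATA box. Over all 32817 starts of the table, which include genes of every kind, the shares were 12%, 33.8%, 32.7% and 12.4%, at a median GC content of 52.4% against 58.4% for the 47 genes. A match is a run of letters and not a measured binding site.

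Expression was given on a log2 scale of background-corrected, quantile-normalized signal, and probes differ in how brightly they hybridise, so levels were compared between hearts and not between genes. The mean signal of 37 of the 52 genes was above that of the median gene of the 8336. The brightest probe was that of Hnrnpab, an A/B-type RNA-binding protein, with 13.97 to 14.39 over the 13 hearts, and the dimmest that of Hnrnpa3, a further A/B-type protein, with 5.61 to 6.57. Neither gene was called in any comparison. The median within-group SD of the 52 genes was 0.20 on the log2 scale, against 0.21 over all genes.

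In vehicle-treated mice, 7 of the 52 genes passed the test of Veh-TAC against Veh-Sham hearts (limma, with a Benjamini-Hochberg adjusted p under 0.05 over 8336 genes), 1 higher and 6 lower in Veh-TAC. The lowered genes were proteins of the spliceosome itself, Snrpn, Snrpa1, Sf3a1, Snrnp200, Snrnp35 and Prpf19, and the raised gene was the SR protein Srsf9. Of all genes, 25% were called in this comparison, 12.5% higher and 12.5% lower, so the share of the 52 called (13.5%) was below that background. Among all genes called, 50.2% were higher, and 79.2% with scaling of the arrays by their median. At an unadjusted p under 0.05 there were 12 of the 52, against 37.3% of all genes, and by the methods' t-test 10, against 33.3% (3 after Benjamini-Hochberg, against 10.8%). The groups' hearts did not overlap for 14 of the 52, against 43.1% of all genes. The median log2 fold change was -0.03 for the 52 genes and for all genes alike, and its median size, regardless of sign, was 0.16 for the 52 and 0.27 for all. For 31 of the 52 genes the 95% interval lay wholly within a 1.5-fold change either way, which held for 39.9% of all genes.

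**Figure D1:**
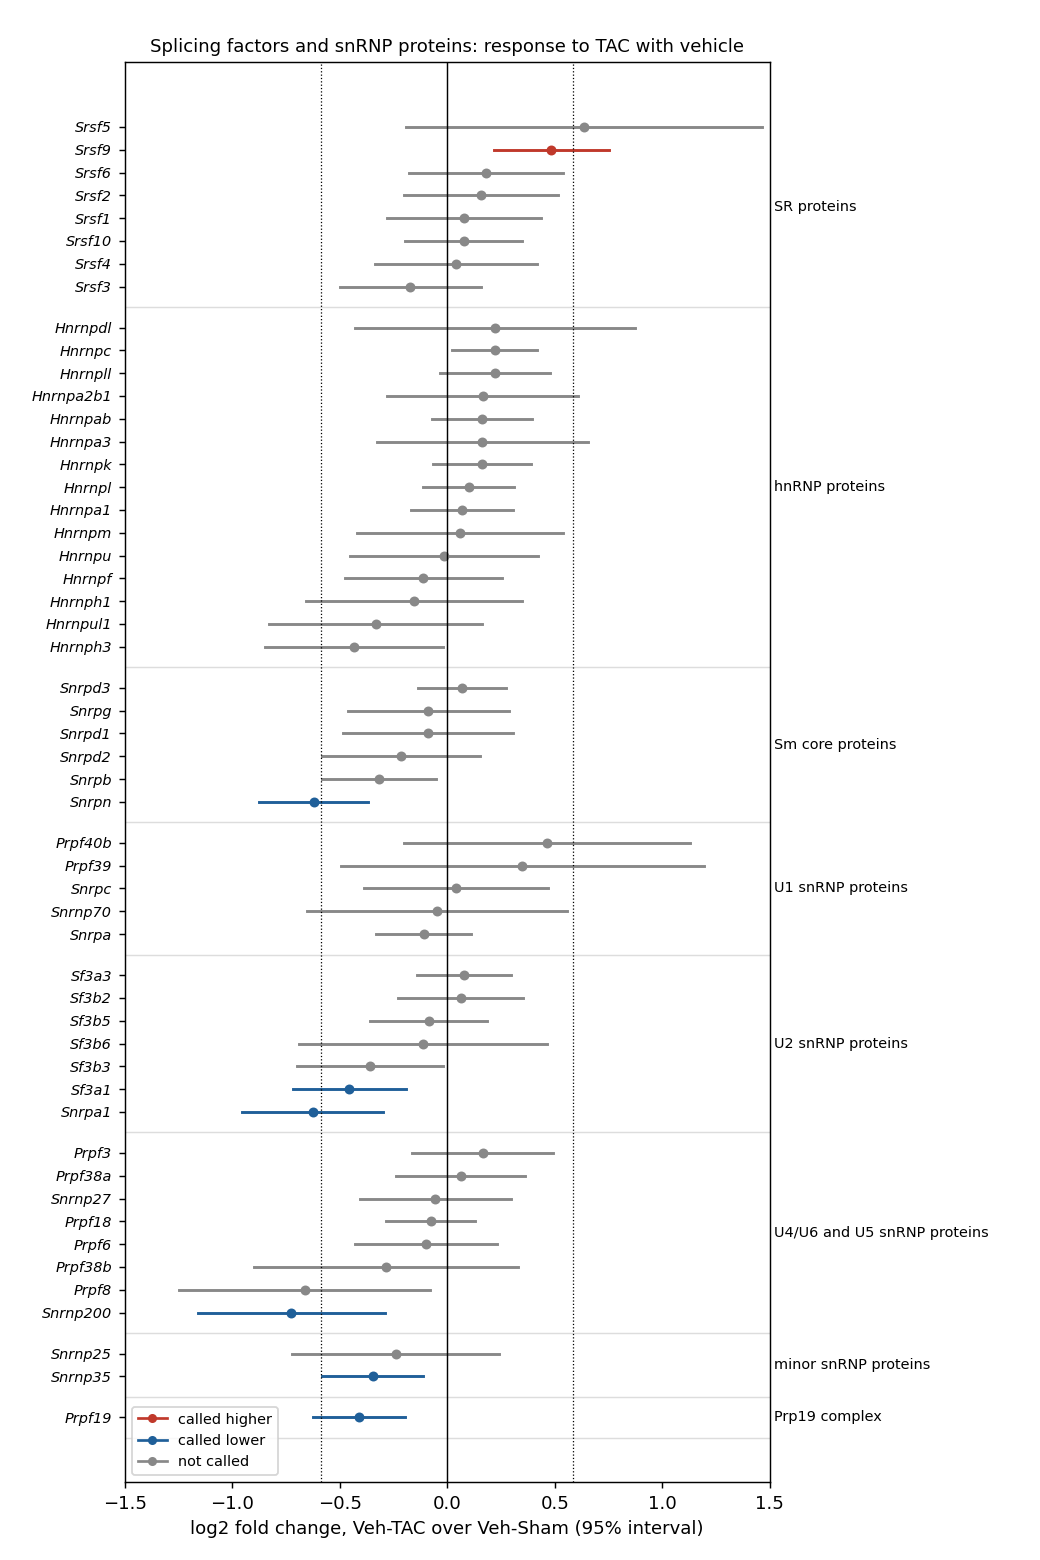
Log2 fold change of the 52 genes in Veh-TAC over Veh-Sham hearts (x axis, points, with 95% intervals as bars), grouped by role; dotted lines mark a 1.5-fold change. The 6 genes called lower are snRNP or Prp19 complex genes at -0.73 to -0.35, and the 1 called higher is Srsf9 at 0.48.

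The 8 SR proteins measured ranged from -0.17 (Srsf3) to 0.64 (Srsf5) in log2 fold change, and 1 was called. Srsf9, a short SR protein that binds exonic enhancers, had log2 values of 10.80, 10.82 and 10.72 in the Veh-Sham hearts and of 11.24, 11.50 and 11.05 in the Veh-TAC hearts. All Veh-TAC hearts lay above all Veh-Sham hearts. This gave a log2 fold change of 0.48 ± 0.12 (SE), or 1.40-fold, with an adjusted p of 0.0137 from limma. The call was lost without Veh-Sham replicate 3 or without Veh-TAC replicate 2, where the adjusted p reached 0.0653. The canonical factors Srsf1 and Srsf2 stood at 0.08 and 0.16, neither called.

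Srsf5, also known as SRp40 and an exon-binding SR protein, had the largest positive fold change of the 52 without being called, and was chosen after its values were seen. Its log2 values were 10.22, 10.31 and 10.37 in the Veh-Sham hearts, 10.15, 11.41 and 11.26 in the Veh-TAC hearts, 10.81, 10.24 and 10.08 in the TUDCA-Sham hearts and 10.36, 10.38, 11.57 and 11.44 in the TUDCA-TAC hearts. Within 3 of the 4 groups the hearts thus split into a high and a low set. The log2 fold change with vehicle was 0.64 ± 0.38 (SE), with an adjusted p of 0.25 from limma. The second probe gave 10.24, 11.08 and 10.88 in the Veh-TAC hearts and 10.38, 10.61, 11.07 and 11.41 in the TUDCA-TAC hearts. The 5 highest hearts were the same for both probes (Veh-TAC replicates 2 and 3, TUDCA-Sham replicate 1 and TUDCA-TAC replicates 3 and 4), the lowest of them at 10.81 and the highest of the other 8 at 10.38 for the first probe.

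The same 5 hearts were also the highest for the second probe of Hnrnpdl, at 9.16 or more against 8.34 or less in the other 8, and for Clk4, a kinase of SR proteins outside the 52 genes, at 11.60 or more against 11.23 or less. Clk4 was not alone in this. Among the 52 genes, Prpf40b had the same 5 highest hearts (8.15 or more against 8.04 or less). So, by narrow gaps, did Srsf6 (10.08 against 10.07) and the brighter probe of Hnrnpa2b1 (11.44 against 11.42). Other splicing genes outside the 52 had the same 5 highest hearts, among them Rbm5 (11.75 or more against 11.39 or less), Luc7l (8.72 against 8.39) and U2surp (11.45 against 11.40). Tardbp (6.95 against 6.81), Celf2 (11.30 against 11.28) and Luc7l2 (9.21 against 9.20) did so too. The brighter probe of Hnrnpdl did not follow, with 9.75 in TUDCA-TAC replicate 4 and 10.37 in Veh-Sham replicate 1. Nor did the dimmer probe of Hnrnpa2b1, with 7.26 and 8.31 in the same hearts. Srsf6, Hnrnpa2b1, Clk4, Rbm5, Luc7l, Luc7l2, U2surp, Celf2 and Tardbp were likewise chosen after their values were seen, and Prpf40b was placed here for that reason. The log2 fold change of Clk4 with vehicle was 0.67 ± 0.30 (SE), adjusted p = 0.126 (limma). None of these hearts was a Veh-Sham heart, and all but TUDCA-Sham replicate 1 were TAC hearts. They cut across the 2 ranges of array intensity, with 3 of them on arrays of the higher range and 2 on arrays of the lower. No comparison of these hearts with the rest was made, since the values themselves picked them.

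None of the 15 hnRNP proteins was called with vehicle by limma, and 2 had an unadjusted p under 0.05. Their log2 fold changes ranged from -0.43 (Hnrnph3) to 0.22 (Hnrnpdl), with 10 above 0 and 5 below. Hnrnpc, whose protein tetramers package nascent RNA, came nearest. Its values were 13.86, 13.83 and 13.86 in the Veh-Sham hearts and 14.01, 14.12 and 14.08 in the Veh-TAC hearts. The groups did not overlap, but the difference was small at 0.22 ± 0.09 (SE), adjusted p = 0.0949 (limma), and a dimmer probe of the gene stood at -0.35. Hnrnpc was called higher in 4 of the 25 limma alternatives, namely without background correction, in the authors' normalized table, with a variance trend and with array weights (adjusted p 0.0314 to 0.032). With array weights Hnrnph3 was called lower as well (adjusted p = 0.0305). Hnrnpk, a poly(C)-binding member, stood at 0.16 with its brighter probe and at -0.24 with the other.

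Other hnRNP genes with several probes also gave unequal values. Hnrnpdl, a relative of Hnrnpd, had log2 fold changes of 0.22 and 1.39 with its probes and was called with neither. Its second probe read 7.80, 7.94 and 8.34 in the Veh-Sham hearts and 7.79, 10.17 and 10.30 in the Veh-TAC hearts, so that 1 Veh-TAC heart lay with the Veh-Sham hearts and the others far above. Hnrnpul1, a U-like member, gave -0.33 and 0.34. Hnrnph1, which binds G-rich stretches, had 5 probes, all lower, from -0.15 to -0.61, and the dimmest alone was called (adjusted p = 0.0379 over the 13557 probes, limma). Which transcripts each probe reads was not tested.

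The Sm core had 6 measured genes, of which 1 was called lower. Snrpn encodes the Sm protein SmN, which takes the place of SmB in brain and heart snRNPs, and is an imprinted gene expressed from the paternal copy. Its log2 values were 13.81, 13.72 and 13.75 in the Veh-Sham hearts, 13.24, 12.89 and 13.28 in the Veh-TAC hearts, 13.63, 13.75 and 13.71 in the TUDCA-Sham hearts and 13.62, 13.57, 13.51 and 13.77 in the TUDCA-TAC hearts. Every Veh-TAC heart lay below every other heart. Veh-TAC hearts differed from Veh-Sham hearts by -0.62 ± 0.12 (SE), or 0.650-fold, with an adjusted p of 0.00266 from limma, the smallest of the 52, and the call was kept under all 25 limma alternatives tried. A second, far dimmer probe gave -0.43 ± 0.26 (SE) and was not called.

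Snrpb, which encodes SmB, the counterpart of SmN, did not pass the test and is given because of that relation. It read 12.63, 12.60 and 12.33 in the Veh-Sham hearts, 12.39, 12.11 and 12.12 in the Veh-TAC hearts, 12.44, 12.47 and 12.61 in the TUDCA-Sham hearts and 12.61, 12.56, 12.35 and 12.61 in the TUDCA-TAC hearts. Veh-TAC and Veh-Sham hearts overlapped by 1 heart of each group. The log2 fold change was -0.32 ± 0.12 (SE), adjusted p = 0.079 (limma), and 0.0297 to 0.0443 in the 4 alternatives that called it. The other Sm genes measured (Snrpd1, Snrpd2, Snrpd3 and Snrpg) lay between -0.22 and 0.07, none called.

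None of the 5 U1 snRNP genes was called by limma, and 0 had an unadjusted p under 0.05. Snrpa, Snrnp70 and Snrpc, which encode the U1-A, U1-70K and U1-C proteins, stood at -0.11, -0.05 and 0.04. Prpf40b, related to a yeast protein that bridges the U1 snRNP and the branch point, had the smallest p of these, with 7.54, 7.08 and 8.04 in the Veh-Sham hearts and 7.50, 8.33 and 8.22 in the Veh-TAC hearts. The groups overlapped, and the log2 fold change was 0.47 ± 0.31 (SE), adjusted p = 0.3 (limma).

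Of the 7 U2 snRNP genes, 2 were called lower with vehicle. Snrpa1, which encodes the U2-A′ protein, read 10.15, 10.58 and 10.45 in the Veh-Sham hearts, 10.06, 9.65 and 9.59 in the Veh-TAC hearts, 10.45, 10.36 and 10.45 in the TUDCA-Sham hearts and 10.25, 10.26, 10.03 and 9.97 in the TUDCA-TAC hearts. The Veh-TAC hearts lay below both sham groups, Veh-TAC replicate 1 by little. In log2 fold change this was -0.63 ± 0.15 (SE), or 0.648-fold, adjusted p = 0.0102 (limma).

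Sf3a1, a subunit of the SF3a complex that joins U2 to the branch point, read 11.17, 10.96 and 11.17 in the Veh-Sham hearts, 10.82, 10.71 and 10.41 in the Veh-TAC hearts, 11.15, 10.95 and 11.19 in the TUDCA-Sham hearts and 10.99, 10.97, 11.00 and 11.09 in the TUDCA-TAC hearts. All Veh-TAC hearts lay below all others. This amounted to a log2 fold change of -0.46 ± 0.12 (SE), or 0.729-fold, adjusted p = 0.017 (limma). Leaving out Veh-Sham replicate 1, Veh-Sham replicate 3 or Veh-TAC replicate 3 ended the call, and across the alternatives the adjusted p reached 0.219. Its partner Sf3a3 stood at 0.08, and the SF3b genes Sf3b2, Sf3b3, Sf3b5 and Sf3b6 at 0.06, -0.36, -0.09 and -0.11, none called.

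Among the 8 genes of the U4/U6 and U5 snRNPs, 1 was called. Snrnp200 encodes Brr2, the U5 helicase that unwinds U4 from U6. It read 9.49, 9.34 and 9.51 in the Veh-Sham hearts, 8.70, 8.77 and 8.69 in the Veh-TAC hearts, 9.13, 9.02 and 9.17 in the TUDCA-Sham hearts and 9.13, 8.61, 9.02 and 9.69 in the TUDCA-TAC hearts. The Veh-TAC hearts lay close together below both sham groups, and the TUDCA-TAC hearts spread over the whole range. The log2 fold change with vehicle was -0.73 ± 0.20 (SE), or 0.605-fold, the largest fall of the 52, adjusted p = 0.0201 (limma). Without Veh-Sham replicate 1 or 3, or Veh-TAC replicate 2 or 3, the call was lost.

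Prpf8, the U5 protein at the heart of the catalytic centre and a partner of Brr2, was looked at after its values were seen. It read 10.48, 9.87 and 10.63 in the Veh-Sham hearts and 9.63, 9.82 and 9.54 in the Veh-TAC hearts, without overlap. Its log2 fold change was -0.66 ± 0.27 (SE), adjusted p = 0.0927 (limma). Prpf8 was called lower in 6 of the 25 limma alternatives (adjusted p 0.0115 to 0.0429), namely with array weights, with the replicate block, with array intensity as a term, and without Veh-Sham replicate 2, TUDCA-TAC replicate 4 or both TUDCA-TAC replicates 3 and 4. The other genes of this group, among them Prpf3 and Prpf6, lay between -0.28 and 0.17.

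The minor spliceosome had 2 measured genes. Snrnp35, the U11 protein that corresponds to U1-70K, read 9.41, 9.14 and 9.47 in the Veh-Sham hearts and 8.95, 8.93 and 9.10 in the Veh-TAC hearts, with a narrow gap between the nearest hearts. Its log2 fold change was -0.35 ± 0.11 (SE), or 0.786-fold, adjusted p = 0.034 (limma). The call was lost under 7 of 25 alternatives, among them without Veh-Sham replicate 1 or 3 or Veh-TAC replicate 1 or 2, and the adjusted p reached 0.559. Snrnp25 stood at -0.24 and was not called.

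Prpf19, the ubiquitin ligase that gives the Prp19 complex its name and also acts in DNA repair, had 3 probes that could be compared. Its brightest probe read 13.74, 13.66 and 13.88 in the Veh-Sham hearts, 13.41, 13.32 and 13.32 in the Veh-TAC hearts, 13.79, 13.71 and 13.81 in the TUDCA-Sham hearts and 13.63, 13.63, 13.83 and 13.77 in the TUDCA-TAC hearts. Every Veh-TAC heart lay below every other heart. The log2 fold change with vehicle was -0.41 ± 0.10 (SE), or 0.752-fold, adjusted p = 0.0101 (limma), and the call was kept under all 25 limma alternatives. The other probes gave -0.50 and -0.57, and all 3 were called over the 13557 probes (adjusted p 0.013 to 0.0171, limma).

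**Figure D2:**
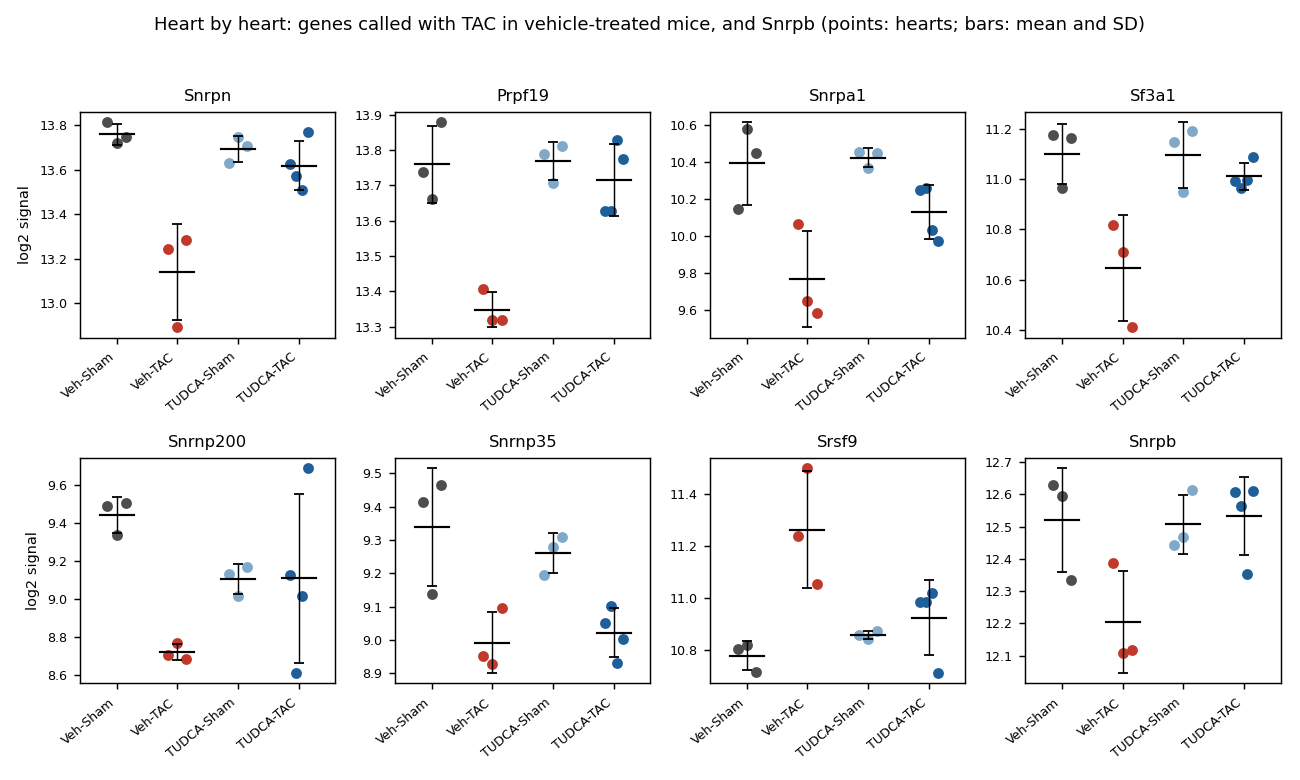
Log2 signal (y axes, each with its own range) of the 7 genes called with TAC under vehicle, and of Snrpb, in each heart of the 4 groups (points), with the group mean and SD. The Veh-TAC hearts lie below all other hearts for Snrpn, Prpf19 and Sf3a1 and above all others for Srsf9.

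Of the 52 genes, 21 had more than 1 probe, 49 probes in all. The probes of 15 of these genes shared the sign of their fold change with vehicle, and those of 3 (Hnrnpdl, Hnrnpul1 and Hnrnpc) differed by over 0.5 on the log2 scale.

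**Figure D3:**
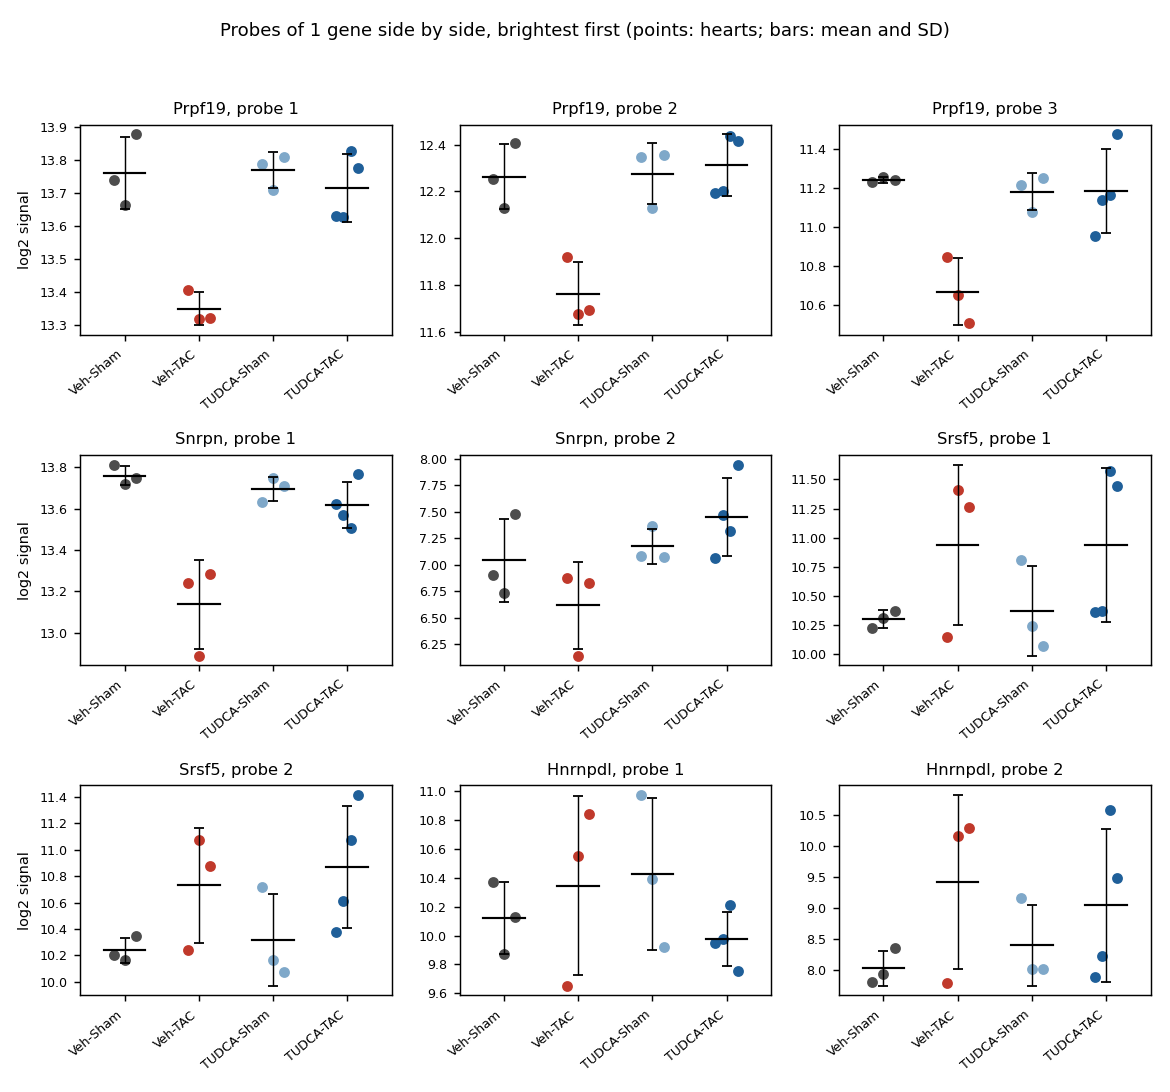
Log2 signal (y axes, each with its own range) of single probes of Prpf19, Snrpn, Srsf5 and Hnrnpdl in each heart (points), with the group mean and SD. The 3 probes of Prpf19 fall alike in the Veh-TAC hearts (-0.41 to -0.57), whereas those of Hnrnpdl differ (0.22 and 1.39).

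By role, the 29 snRNP and Prp19 complex genes held 6 called lower (20.7%) and 0 called higher, and the 23 SR and hnRNP genes held 0 called lower and 1 called higher (4.35%), in limma, against 12.5% of all genes each way. Their median log2 fold changes were -0.10 and 0.10, with 21 of 29 below 0 and 17 of 23 above 0, but under scaling of the arrays by their median, which moved the median of all genes by 0.12, the first median was 0.08 with 12 of 29 below 0 and the second 0.23. Under that scaling Snrpa1, Sf3a1, Snrnp200 and Snrnp35 were no longer called, whereas Snrpn, Prpf19 and Srsf9 were. The split by role was made with the values known and was not tested.

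In TUDCA-treated mice, 0 of the 52 genes passed the test of TUDCA-TAC against TUDCA-Sham hearts (limma), where 1.79% of all genes were called. At an unadjusted p under 0.05 there were 4, against 16.6% of all genes. By the methods' t-test there were 6 at an unadjusted p under 0.05, against 12.6% of all genes, and 0 after Benjamini-Hochberg, as over all genes. The genes called with vehicle stood at -0.08 for Snrpn, -0.05 for Prpf19, -0.09 for Sf3a1, -0.30 for Snrpa1, 0.00 for Snrnp200, -0.24 for Snrnp35 and 0.07 for Srsf9 in log2 fold change. Snrpa1 and Snrnp35 thus kept the larger falls, with 95% intervals of -0.60 to 0.01 and of -0.46 to -0.02. For Snrnp200, all TUDCA-Sham hearts lay below all Veh-Sham hearts (mean 9.11 against 9.44), though this difference was not called. The mean of its TUDCA-TAC hearts was 9.11, so the 0.00 is set against a lower sham level and does not mark a return to that of Veh-Sham. For 37 of the 52 genes the interval lay within a 1.5-fold change either way, which held for 60.4% of all genes.

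**Figure D4:**
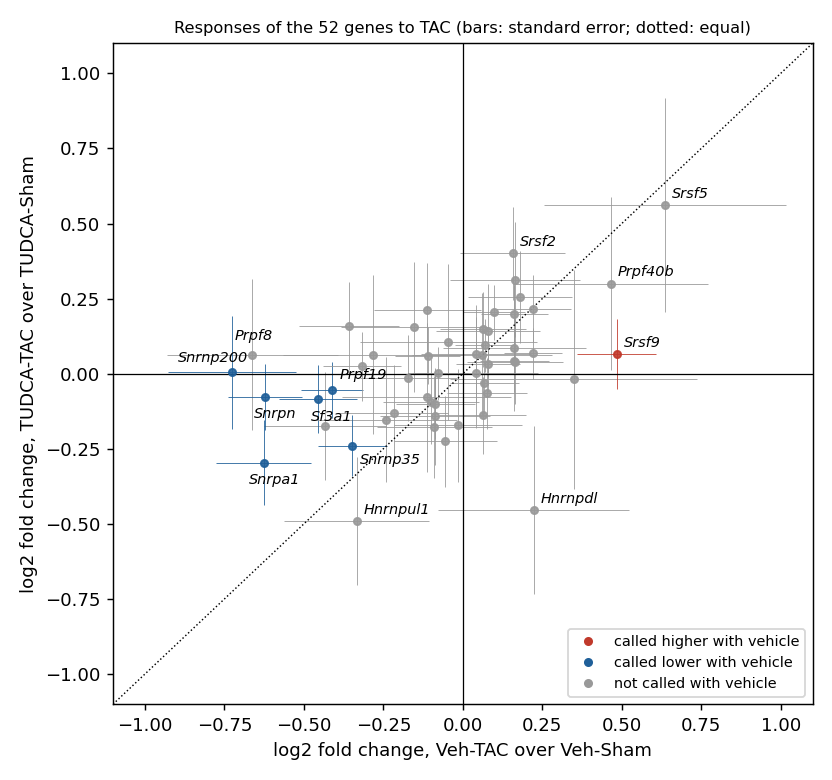
Log2 fold change of the 52 genes with TAC in vehicle-treated mice (x axis) and in TUDCA-treated mice (y axis); bars are standard errors and the dotted line marks equal responses. Snrnp200, Snrpn, Sf3a1 and Prpf19 lie at -0.73 to -0.41 on the x axis and at -0.09 to 0.00 on the y axis.

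The difference between these responses was tested directly, and 0 of the 52 genes passed (limma), against 2.14% of all genes, with 6 at an unadjusted p under 0.05, against 19.6% of all genes. The largest of the genes called with vehicle were Snrnp200 at 0.73 ± 0.27 (SE), adjusted p = 0.166, and Snrpn at 0.55 ± 0.16 (SE), adjusted p = 0.0946. A difference between the responses with vehicle and with TUDCA was therefore not shown for a single gene of the 52, although for Snrpn the adjusted p was 0.0317 to 0.0492 in 4 of the alternatives.

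Between the groups with constriction, 3 of the 52 genes were higher in TUDCA-TAC than in Veh-TAC hearts and 0 were lower (limma), against 16.5% of all genes called, 8.17% higher and 8.34% lower. At an unadjusted p under 0.05 there were 9, against 31.2% of all genes, and by the methods' t-test 7, against 24.9% (0 after Benjamini-Hochberg, against 0.012%). The 3 genes were Snrpn at 0.48 ± 0.11 (SE), adjusted p = 0.0136, Prpf19 at 0.37 ± 0.09 (SE), adjusted p = 0.0203, and Sf3a1 at 0.36 ± 0.11 (SE), adjusted p = 0.0463, all also among the genes called lower with TAC. Both comparisons share the Veh-TAC hearts, which were lowest for these genes. In all 3 the hearts of the groups did not overlap, which held for 8 of the 52 genes and for 2184 of all 8336. These counts rest on the brightest probe of each gene. Over the 13557 probes, every probe of Prpf19 and Snrpn was called higher (limma). The dimmer probe of Hnrnpa2b1 was called lower, at -0.83 with an adjusted p of 0.0324 (limma), while its brighter probe stood at 0.25 and was not called.

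With the intensity at the 25th percentile of each array as a term in the fit, 0 of the 3 calls remained (adjusted p = 0.16 for Snrpn, 0.167 for Prpf19 and 0.294 for Sf3a1, limma). In a fit to these groups alone 0 remained as well, with 0.0708, 0.0809 and 0.116. The calls over all genes fell from 1376 to 147 with that term and to 547 in that fit. All TUDCA-TAC arrays lay in the lower range of intensity and all Veh-TAC arrays in the higher. What the term removes therefore cannot be told apart from a difference between the groups. The call of Sf3a1 was kept under 10 of 25 alternatives, that of Prpf19 under 19 and that of Snrpn under 22. Without Veh-TAC replicate 2 all 3 calls were lost, and Prpf19 and Sf3a1 also lost theirs without Veh-TAC replicate 3. Srsf9 stood at -0.34 ± 0.12 (SE), adjusted p = 0.0646, and Snrpb at 0.33 ± 0.11 (SE), adjusted p = 0.0695 (limma), neither called, although Srsf9 was called in 3 of the alternatives (adjusted p 0.0374 to 0.0464) and Snrpb in 6 (0.0176 to 0.0453).

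TUDCA without constriction left no gene of the array called between the TUDCA-Sham and Veh-Sham groups (0 of 52 and 0% of all 8336, limma), with 0 of the 52 at an unadjusted p under 0.05 against 2.44% of all genes, and 2 by the methods' t-test, against 3.55% (0 after Benjamini-Hochberg, as over all genes). The log2 fold changes of the 52 ranged from -0.34 (Snrnp200) to 0.44 (Prpf39), with a median of 0.01. For 41 of the 52 the 95% interval lay within a 1.5-fold change either way, which held for 69.4% of all genes.

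Other genes of the pathway were read from 8 lists that hold 126 genes, of which 89 were measured. With vehicle, 9 of the 89 (10.1%) were called in Veh-TAC against Veh-Sham hearts, 2 higher and 7 lower, a share below the 25% of all genes called there. The median log2 fold change of the 89 was -0.05, against -0.03 for all genes. No gene was called by limma among the SR protein kinases (6 measured), the U2AF and branch point factors (11), the RNA helicases of splicing (11) and the Prp19 complex and catalytic step proteins (16), with 1, 1, 1 and 3 at an unadjusted p under 0.05. The calls fell in the SMN complex (3 lower of 11), the tissue regulators of heart and muscle (3 lower of 14), the exon junction complex and SR-related proteins (1 higher and 1 lower of 12) and the Lsm ring (1 higher of 8).

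Among the tissue regulators, Rbfox1, which binds UGCAUG beside muscle and brain exons, read 11.78, 11.41 and 11.96 in the Veh-Sham hearts, 10.51, 10.11 and 10.21 in the Veh-TAC hearts, 11.85, 11.52 and 11.85 in the TUDCA-Sham hearts and 11.06, 11.21, 11.42 and 12.08 in the TUDCA-TAC hearts. The Veh-TAC hearts lay below all others. The log2 fold change with vehicle was -1.43 ± 0.24 (SE), adjusted p = 0.00129 (limma), beyond that of any of the 52 genes. Khdrbs3, a STAR family regulator, fell by 0.83 with adjusted p = 0.000664, and Rbm38, an RNA-binding protein of muscle differentiation, fell by 0.59 with adjusted p = 0.00493. Rbm38, Prmt5, Acin1, Ptbp3, Bcas2 and Lsm2 are named here after their values were seen.

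In the SMN complex, which loads Sm rings onto snRNAs, Gemin4 fell by 0.50 with adjusted p = 0.0318 (limma). Wdr77 and Prmt5, the methylosome pair that methylates Sm proteins, fell by 0.40 and 0.43 with adjusted p = 0.0206 and 0.0326. Of the exon junction complex, the core protein Rbm8a fell by 0.58 with adjusted p = 0.00417. The risers were Tra2a, an SR-related activator, at 0.91 ± 0.21 (SE), adjusted p = 0.00862, and Lsm8, of the nuclear Lsm ring that binds U6, at 0.29 ± 0.10 (SE), adjusted p = 0.0459. With scaling by the median of each array, Rbfox1, Khdrbs3, Tra2a and Lsm8 were still called and the other 5 were not, with adjusted p from 0.0847 (Rbm38) to 0.365 (Wdr77).

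**Figure D5:**
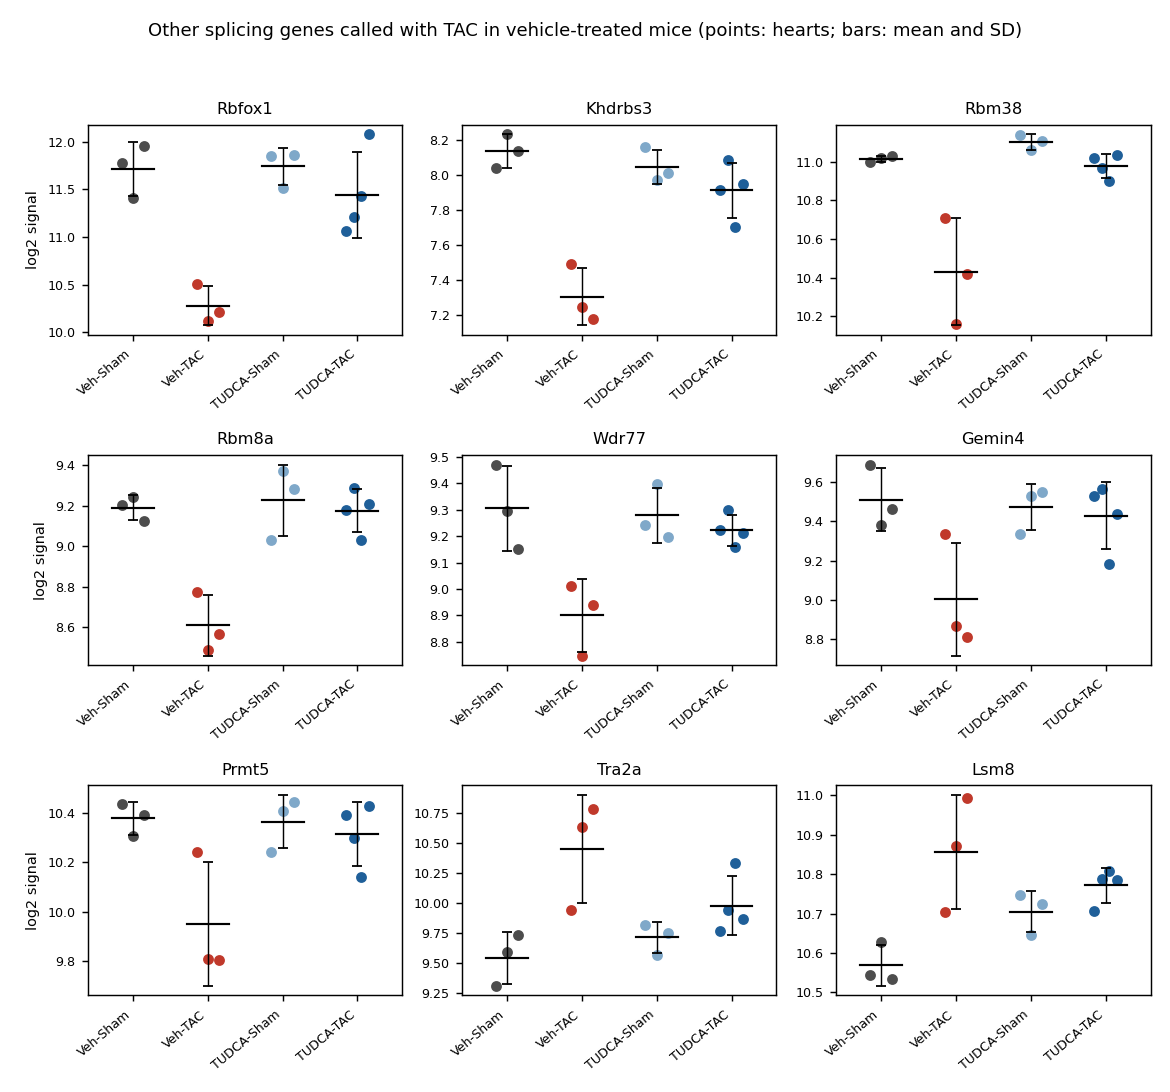
Log2 signal (y axes, each with its own range) of the 9 genes of the other splicing lists called with TAC under vehicle, in each heart (points), with the group mean and SD. The Veh-TAC hearts lie below all others for Rbfox1, Khdrbs3, Rbm38, Rbm8a and Wdr77.

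With TUDCA, 2 of the 89 were called between TUDCA-TAC and TUDCA-Sham hearts, a share of 2.25% that was close to the 1.79% of all genes. Both were lower, Bcas2, a Prp19 complex protein, by -0.51 and Lsm2, of the Lsm ring, by -0.48. Between TUDCA-TAC and Veh-TAC hearts 7 of the 89 (7.87%) were called, 5 higher and 2 lower, below the 16.5% of all genes. Rbfox1 was 1.16, Khdrbs3 0.61, Rbm38 0.55 and Rbm8a 0.57 higher on the log2 scale, while Ptbp3, a polypyrimidine tract binding repressor, stood at -0.87 and Bcas2 at -0.41. With array intensity as a term, these 6 calls were lost (adjusted p 0.0729 for Khdrbs3 to 0.279 for Ptbp3, limma). The calls over all genes fell from 1376 to 147 with that term.

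Acin1, a factor that accompanies the exon junction complex, was 1.95 ± 0.33 (SE) higher in TUDCA-TAC than in Veh-TAC hearts, adjusted p = 0.00367 (limma), and 0.0487 with array intensity as a term. Its values were 6.88, 7.22 and 7.53 in the Veh-Sham hearts, 6.85, 6.50 and 6.47 in the Veh-TAC hearts, 7.34, 7.39 and 8.92 in the TUDCA-Sham hearts and 8.54, 8.60, 8.89 and 8.21 in the TUDCA-TAC hearts. The 5 arrays of the lower intensity range held 8.21 to 8.92 and the other 8 held 6.47 to 7.53, without overlap, so that TUDCA-Sham replicate 3 stood with the TUDCA-TAC hearts and apart from its own group.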

How the data were processed

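RNA from whole hearts was hybridized to Illumina MouseRef-8 v2 arrays, 1 array per heart, and read with GenomeStudio. For 25697 probes the authors deposited raw mean intensities, neither background-subtracted nor normalized, each with a detection p-value. The authors also deposited normalized log2 values for 11732 of them. A check showed that this table equals the log2 raw intensity of its own probes after quantile normalization (largest difference 5e-07) and holds the probes detected on at least 8 arrays, so dim probes are missing from it.

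Values were computed from raw intensities with limma 3.58.1 in R 4.3.3: normexp background correction with negative controls inferred from detection p-values (offset 16), quantile normalization and log2. Probes with a detection p under 0.05 on at least 3 arrays were kept (13557), of which 2479 had no symbol, and the brightest probe stood for a gene. The model gave each of the 4 groups a mean and used all 13 arrays, with eBayes, and p-values were adjusted over 8336 genes by Benjamini-Hochberg. Genes with an adjusted p under 0.05 were called. The study names Student's t-test or ANOVA for group means in general and no test for the arrays; the methods' t-test refers to the former, computed for each gene on the same values. Nothing beyond the words biological replicate says how hearts were paired or handled together, so p-values measure the spread between these hearts. The number of arrays limits the precision.

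The genes and lists were chosen with earlier results of these data known. Genes are named where called without overlap between groups, where they have the smallest p with vehicle in their role group, where probes differ most, and at the highest and lowest mean; in other lists, up to 2 rising and 2 falling called genes. Exceptions are stated. Alternatives were other background corrections, scalings, filters, probe rules, models and tests, and leaving out arrays. The analysis was tested on simulated data. Coordinates belong to the RefSeq table, as the deposited tables name no build.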

Additional observations from a re-analysis of the deposited data

Results flagged for a closer look

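Srsf9 in TUDCA-TAC replicate 4 read 10.71 on the log2 scale, against 10.98 to 11.02 in the other 3 TUDCA-TAC hearts. The gap was 0.886 of the range of the group, above Dixon's critical value at 95%. It was the 1 value marked among 15 genes examined in the TUDCA-TAC group, and chance marks about 1 group in 20. The array of this heart also had the lowest intensity at the 25th percentile (164.4) and the highest signal over background (19.3) of the 13.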

How the results depend on the processing

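Under all 25 limma alternatives, the calls of Snrpn and Prpf19 between Veh-TAC and Veh-Sham hearts held. The number of the 52 genes called there (7) was 3 with scaling by the array median, 12 with array weights, 4 with the limit of over 1.5-fold and an unadjusted p under 0.05 in limma, 3 with that limit in the methods' t-test and 3 with the t-test after Benjamini-Hochberg, and it ranged from 3 to 9 when single arrays were left out. The number for TUDCA-TAC against Veh-TAC (3) was 5 without background correction, in the authors' normalized table and with array weights, 1 with the limit of 1.5-fold in limma, 1 without TUDCA-TAC hearts 3 and 4, 0 in a fit to these groups alone, with array intensity as a term, and by both uses of the t-test, and 0 to 5 when single arrays were left out. With the replicate number as a replicate block it was 1 (Snrpn); TUDCA-TAC replicate 4, alone in its number, adds nothing to that fit, and leaving out this heart without a block gave 2 (Snrpn and Prpf19). The replicate numbers come from the sample descriptions, and the titles carry other animal numbers. The correlation of same-numbered hearts ran from -0.38 to 0.44 and was over 0.1 in 6 of 12 pairs. With 3 or 4 hearts a group this cannot settle whether the numbers pair hearts. With the block 7 of the 52 genes were again called between Veh-TAC and Veh-Sham hearts, but Snrnp35 was lost (adjusted p = 0.0519) and Prpf8 gained (0.0335). Over all genes it moved the calls for TUDCA-TAC against Veh-TAC from 1376 to 813 (918 without TUDCA-TAC replicate 4 and no block), for the TUDCA response from 149 to 226 (239) and for the difference of responses from 178 to 89 (94). The number for the difference of responses (0) was 1 without background correction, in the authors' table, with trend and with array weights, each time Snrpn, and 1 with the limit of 1.5-fold. Of the genes not called with vehicle, Prpf8 was called under 6 alternatives, Hnrnpc and Snrpb under 4, Sf3b3 under 2 and Hnrnph3 under 1. No called value changed sign. Scaling by the median shifted the median of all genes by 0.12 between Veh-TAC and Veh-Sham hearts. When an array was left out, the normalized values were kept. With 3 or 4 hearts a group, the median reach of a 95% interval on either side was 0.35 on the log2 scale for the 52 genes with vehicle.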
